A study of Capra hircus with 4 samples.

Results

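Theca-gated nuclei of the goat ovary were chosen by their own UMI counts (unique molecular identifiers, each standing for 1 captured RNA molecule). A member had at least 800 UMIs, at least 2 UMIs of LHCGR, at least 1 UMI of PTCH1, CYP17A1 or CYP11A1, and no UMI of FSHR, CYP19A1 or INHBA. The gate found 84 members among the 48332 nuclei of the files, of which 41606 had 800 or more UMIs. The nuclei came from ovaries of 2 Nubian and 2 Du'an goats, all about 3 years old and treated with a progesterone device (300 mg for 17 days) to bring them into estrus together, with no hormone to raise the number of ovulations. Nubian goats stood for litters of 3 or more and Du'an goats for litters of 1. Each goat gave 1 library of single-nucleus RNA sequencing, so breed cannot be told apart from anything else that goats of a breed share. Values per library are given throughout in the order Du'an replicate 1, Du'an replicate 2, Nubian replicate 1, Nubian replicate 2. In that order the files held 40573246, 60566681, 71613892 and 52783453 UMIs, the members numbered 8, 30, 7 and 39, and the UMIs of the members summed to 31597, 215857, 72227 and 181311.

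Theca cells wrap the growing follicle from outside. Luteinizing hormone acts on them through LHCGR and cyclic AMP. STAR brings cholesterol into the mitochondrion, CYP11A1 cuts it to pregnenolone with electrons passed on by FDXR and FDX1, and CYP17A1, helped by cytochrome b5 (CYB5A), leads on to androgen. Granulosa cells, inside the follicle, turn that androgen into estrogen with CYP19A1, and late in follicle growth they carry LHCGR too. PTCH1 is the receptor and a target gene of Hedgehog ligands, which granulosa cells send to the theca.

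Some members stood apart from the rest. A nucleus of Du'an replicate 2 with 69121 UMIs held 32.0% of the member UMIs of that library. It entered by 4 UMIs of PTCH1 with 3 of LHCGR, and it also held 39 UMIs of STAR, 32 of PTPRC (the pan-leukocyte marker) and 720 of the macrophage markers. A nucleus of Nubian replicate 1 with 49684 UMIs held 68.8% of the member UMIs there. It entered by 4 UMIs of CYP11A1 with 6 of LHCGR, and it held 636 UMIs of fibroblast markers. The other 82 members held 827 to 17297 UMIs, and the median over all members was 3546. In 6 members more than 20% of the UMIs were mitochondrially encoded, at most 33.01%. Barcodes present in the files of a pair of libraries numbered 502 over all pairs, with no member among them. Because the sums are small, 1 UMI was worth 31.6, 4.63, 13.8 and 5.52 CPM (counts per 1000000 UMIs of the summed nuclei).

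The gate genes chose the members, so their values are a description with no test. LHCGR, the receptor for luteinizing hormone, stood at 1393, 1955, 692 and 1384 CPM. Without its deepest member Nubian replicate 1 was at 1952 CPM of LHCGR and 311 CPM of CYP11A1. The median of LHCGR was 4 UMIs per member and the range 2 to 168, with 20 members at 10 or more and 23 at exactly 2. The highest member was of Du'an replicate 2 and held 168 of the 422 LHCGR UMIs of that library. CYP11A1, the side-chain cleavage enzyme (LOC102173131 in the files), gave 7, 46, 11 and 79 UMIs, or 222, 213, 152 and 436 CPM, in 58 members. CYP17A1, the enzyme that leads to androgen (LOC102182663 in the files), rested on 1, 20, 4 and 20 UMIs, or 31.6, 92.7, 55.4 and 110.3 CPM, in 27 members. Nubian replicate 2 was the highest of the libraries for both enzymes. The 2 deepest members held no CYP17A1 UMI, and without them CYP17A1 was at 136 CPM in Du'an replicate 2 and 177 CPM in Nubian replicate 1, both above Nubian replicate 2. PTCH1 gave 7, 22, 2 and 25 UMIs, or 222, 102, 27.7 and 138 CPM, in 29 members. FSHR, CYP19A1 and INHBA were at 0 by the rule. CYP11A1 alone let in 31 members, PTCH1 alone 18, CYP17A1 with CYP11A1 17, PTCH1 with CYP11A1 8, CYP17A1 alone 7, all of these genes 2, and PTCH1 with CYP17A1 1.

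**Figure D1:**
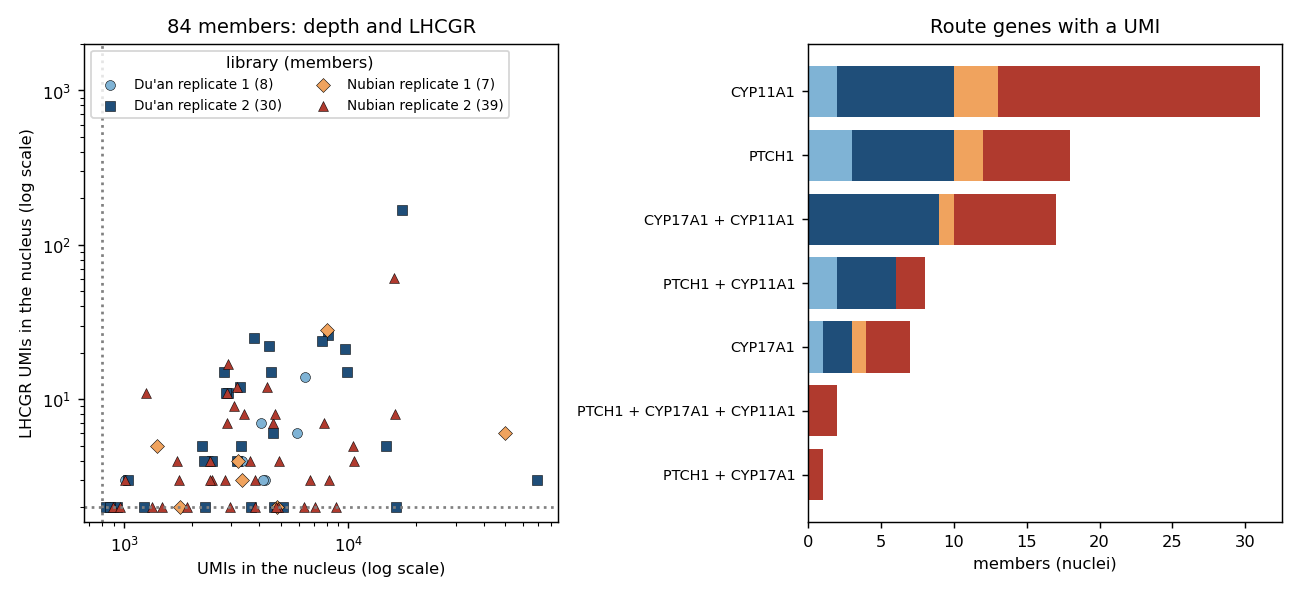
Left, LHCGR UMIs against all UMIs for the 84 members (log axes, 1 point per nucleus, dotted lines at the limits of 2 and 800). Right, number of members by the route genes that had a UMI, coloured by library as on the left. Most members lie near the lower LHCGR limit, the highest has 168 LHCGR UMIs, 2 nuclei exceed 20000 UMIs, and CYP11A1 alone is the commonest route with 31 members.

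The nuclei just inside and just outside each limit are compared as a description. The 23 members with exactly 2 LHCGR UMIs held 194 CPM of CYP11A1 and 183 CPM of NR5A1, and the 100 nuclei that met all else with 1 LHCGR UMI held 77.0 and 22.4 CPM. CYP11A1 is itself a route gene, and these sets summed to 87540 and 714316 UMIs. Nubian replicate 1 went the other way for CYP11A1, with 0 UMIs inside and 16 outside. Du'an replicate 2 and Nubian replicate 2 kept the pooled order, and Du'an replicate 1 had no nucleus inside. On each side 13 of the 16 NR5A1 UMIs lay in Nubian replicate 2. The 31 members with exactly 1 route UMI held 1201 CPM of LHCGR, and the 167 nuclei that met all else without one held 828 CPM. The last condition left out more nuclei than the gate kept, since 90 nuclei met all else but held exactly 1 UMI of FSHR, CYP19A1 or INHBA. Pooled, those 90 were at 1701 CPM of LHCGR, 80.6 CPM of CYP17A1 and 234 CPM of CYP11A1, beside the 1531, 89.8 and 285 CPM of the members. NR5A1, which the gate did not use, was at 115 CPM in the 90 and 174 CPM in the members. The 90 numbered 5, 37, 30 and 18 per library, another make-up than that of the members. On depth, 8 members had under 1200 UMIs, and 3 nuclei with 400 or more but under 800 UMIs met all else.

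Granulosa UMIs were also read in nuclei of another kind. Whether they came from RNA outside nuclei or from doublets was not tested. Among immune-gated nuclei (800 or more UMIs and 3 or more of PTPRC, 155, 1694, 424 and 495 per library), a UMI of FSHR, CYP19A1 or INHBA was present in 38.1%, 71.3%, 81.6% and 40% of them. At least 2 LHCGR UMIs were present in 0 of the 155 nuclei of Du'an replicate 1 and in 9.39%, 13.0% and 1.82% of the others. A UMI of CYP11A1 was present in 2.58%, 4.07%, 11.3% and 3.03%, and one of PTCH1, which alone let in 18 members, in 10.3%, 8.62%, 10.8% and 14.9%. The median depth of the immune gate was 4247, 3070, 3873.5 and 7361 UMIs, and that of the members 4125, 3498.5, 3351 and 3437. CYP17A1 was nearly absent from the immune gate, with 0.305 ± 0.498 CPM (mean ± SD, n = 4 goats) in the immune gate, 72.5 ± 35.6 CPM in the theca gate and 6.35 ± 5.48 CPM in nuclei with both LHCGR and a granulosa gate gene. A CYP17A1 UMI could let a nucleus into the theca gate and into no other. Its higher level there is therefore set in part by the rule and is no measure of specificity. The members were a minority of all nuclei with CYP17A1. Of 188 such nuclei with 800 or more UMIs, 27 were members, 76 had 2 or more LHCGR UMIs together with FSHR, CYP19A1 or INHBA, and 85 had fewer than 2 LHCGR UMIs.

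STAR is the one theca marker of the list that the gate did not use, and it was low. It gave 0, 44, 0 and 6 UMIs, or 0, 204, 0 and 33.1 CPM, and 39 of the 44 UMIs of Du'an replicate 2 lay in the nucleus with macrophage markers. Without that nucleus STAR was at 34.1 CPM there. A count of 0 allows up to 94.9 CPM in Du'an replicate 1 and 41.5 CPM in Nubian replicate 1 (3 counts of the sum, counting error only). The immune gate held 104, 49.9, 106 and 335 CPM of STAR, so apart from the nucleus with macrophage markers no library of the members exceeded the immune gate of the same goat. The LHCGR granulosa gate held 11.7, 5.90, 3.92 and 19.8 CPM and the stromal gate 0, 0, 0 and 12.9 CPM, so both libraries of the members with STAR UMIs were above these gates of the same goat, on 5 UMIs in Du'an replicate 2 without that nucleus and 6 in Nubian replicate 2. Of these, 3 of the 5 and 3 of the 6 lay in a single nucleus of each library. That of Nubian replicate 2 also held 70 UMIs of fibroblast markers. The order of the gates thus rests on very few nuclei. The nuclei are therefore named here by their gate and not as steroid-producing cells.

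Other genes of theca and steroid cells were present to different degrees. INSL3, a peptide hormone of theca and Leydig cells, gave 7 UMIs in 7 members (0, 2, 0 and 5 per library). It stood at 0, 9.27, 0 and 27.6 CPM, against 0, 0.382, 0.905 and 0.400 CPM in the LHCGR granulosa gate, 0 UMIs in the stromal gate and 1 UMI in the immune gate. With every nucleus thinned to 800 UMIs no member kept an INSL3 UMI. NR5A1, the steroidogenic factor, stood at 31.6, 120.5, 69.2 and 303 CPM in 38 members (10 after thinning), against 12.6 ± 11.9 CPM in the immune gate. Nubian replicate 2 was the highest and Du'an replicate 1, with 1 UMI, the lowest. GATA4, a partner of NR5A1, was found in 64 members at 759.6, 292, 111 and 767 CPM, and its cofactor ZFPM2 in 82 members at 2658, 2414, 3267 and 4363 CPM. ZFPM2 was not particular to the members. It was the most abundant of 17 listed transcription factors in the LHCGR granulosa, stromal and immune gates as well. Summed, these factors came to 5173 ± 1496 CPM in the members, 9634 ± 3286 CPM in the LHCGR granulosa gate and 6409 ± 1360 CPM in the stromal gate.

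**Figure D2:**
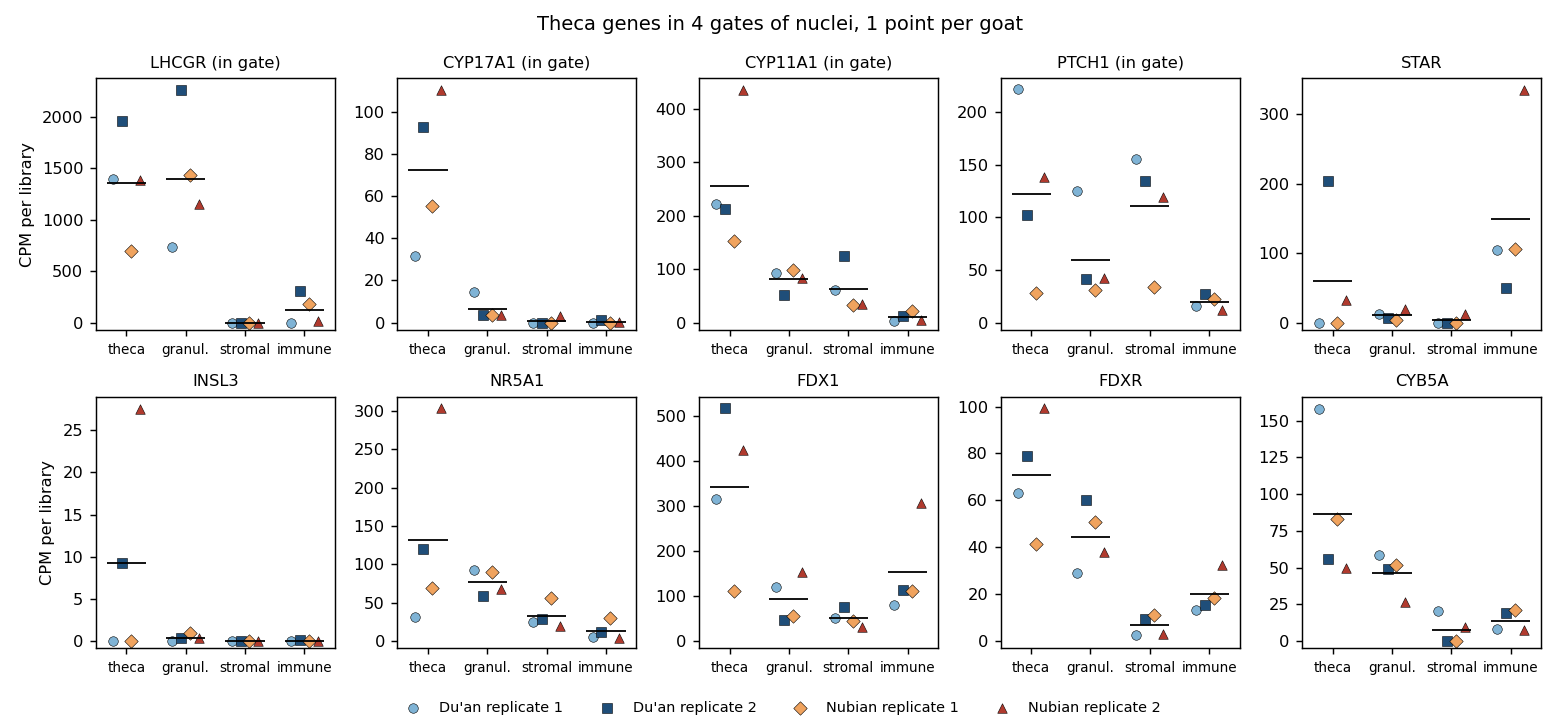
Level of 10 theca genes in CPM of the summed nuclei in the theca, LHCGR granulosa (granul.), stromal and immune gates, with 1 point per goat and a line at the mean of the 4 goats. LHCGR, CYP17A1, CYP11A1 and PTCH1 served in the gate. STAR has its highest mean in the immune gate, INSL3 is above 1 CPM in the theca gate of 2 goats and nowhere else, and FDXR in the theca gate lies at 41.5 to 99.3 CPM, above all stromal values.

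Members were also read by the gene that let them in. NR5A1 had a UMI in 34 of the 66 members that entered by CYP17A1 or CYP11A1 and in 4 of the 18 that entered by PTCH1 alone. By library this was 0 of 5 and 1 of 3, 9 of 23 and 1 of 7, 2 of 5 and 1 of 2, and 23 of 33 and 1 of 6, so 2 of the 4 goats went the other way and Nubian replicate 2 carried most of the pooled difference. PTPRC had a UMI in 2 of the 66 and in 5 of the 18. INSL3 had a UMI in 7 of the 66 and in 0 of the 18. GATA4 was found in 53 and 11, the orphan receptor NR2F2 in 37 and 5, and CYB5A in 20 and 2. For GATA4 this was 4 of 5 and 3 of 3 in Du'an replicate 1. In Nubian replicate 1 it was 2 of 5 and 1 of 2, so 2 of the 4 goats went the other way. Median depth was 3331 UMIs in the 66 and 4532.5 in the 18, and median LHCGR 5 and 2.5 UMIs, so the set by PTCH1 alone was the deeper one. NR5A2 had a UMI in 15 of the 66 and in 8 of the 18, at 211 and 116 CPM. Detection and level thus gave opposite orders, but Nubian replicate 2 held 64 of the 73 and 13 of the 18 NR5A2 UMIs. In the remaining libraries the levels were 0 and 79.9, 67.3 and 41.2, and 15.2 and 0 CPM. SERPINE2 was found in 29 and 7. The 17 members with CYP17A1 and CYP11A1 had the highest median LHCGR of the routes with more than 2 members, 12 UMIs. Members by PTCH1 alone numbered 3, 7, 2 and 6 per library, and no test between routes was run.

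Marker genes of other cell types were summed over the members. Stromal markers (7 of 7 in the files had a UMI, TSHZ2 the most abundant) came to 5760.0, 4419.6, 5303 and 4876 CPM, close to each other in all libraries. Granulosa markers outside the gate (13 of 13 with a UMI, TMEM200A the most abundant) came to 569.7, 977, 1385 and 1886 CPM, against 7887 ± 4617 CPM in the LHCGR granulosa gate and 1295 ± 1101 CPM in the immune gate. Without the deepest member the granulosa sum of Nubian replicate 1 was 3105 CPM, the highest of the libraries. Macrophage markers (8 of 8, C1QC the most abundant) came to 31.6, 3641, 152 and 49.6 CPM, and the high sum of Du'an replicate 2 became 449.8 CPM without its deepest member, while that of Nubian replicate 1 became 488 CPM without the deepest one there. Other members with over 5 macrophage UMIs were 1 of Du'an replicate 2 with 62 and 1 of Nubian replicate 1 with 11. Fibroblast markers (5 of 6, COL3A1 the most abundant, POSTN at 0) came to 633, 292, 8944 and 893 CPM, and the high sum of Nubian replicate 1 became 444 CPM without its deepest member. Most of each of these 2 high sums therefore came from a single nucleus. Members of Nubian replicate 2 with 76 and 70 fibroblast UMIs stayed in the sums without the deepest members.

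The sums of the remaining lists were each under 500 CPM in every library. T or natural killer markers (7 of 9 with a UMI, PTPRC the most abundant, CD3D and GNLY at 0) came to 0, 329, 96.9 and 38.6 CPM, and smooth muscle markers (8 of 8, MYH11) to 253, 144, 125 and 309 CPM. Pericyte markers (5 of 7, RGS5, KCNJ8 and MCAM at 0) came to 63.3, 111, 69.2 and 11.03 CPM, blood endothelial markers (8 of 8, ERG) to 158, 64.9, 471 and 55.2 CPM (44.4 CPM in Nubian replicate 1 without its deepest member) and lymphatic endothelial markers (5 of 6, MMRN1, LYVE1 at 0) to 253, 69.5, 27.7 and 149 CPM. Without that member Nubian replicate 1 was at 311 CPM of T or natural killer markers and 355 CPM of smooth muscle markers. Its pericyte and lymphatic endothelial sums were then 133 and 88.7 CPM. Cycling markers (9 of 9, DIAPH3) came to 63.3, 78.8, 55.4 and 474 CPM, highest in Nubian replicate 2, where 2 of the 39 members held 75 of the 86 cycling UMIs, and epithelial markers (3 of 8, KRT8, with KRT18, KRT19, KRT7, EPCAM and CDH1 at 0) to 0, 13.9, 0 and 33.1 CPM. A UMI of PTPRC, PECAM1 or MYH11 was present in 19 of the 84 members. Doublets were neither called nor removed, and their part in these values was not tested.

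**Figure D3:**
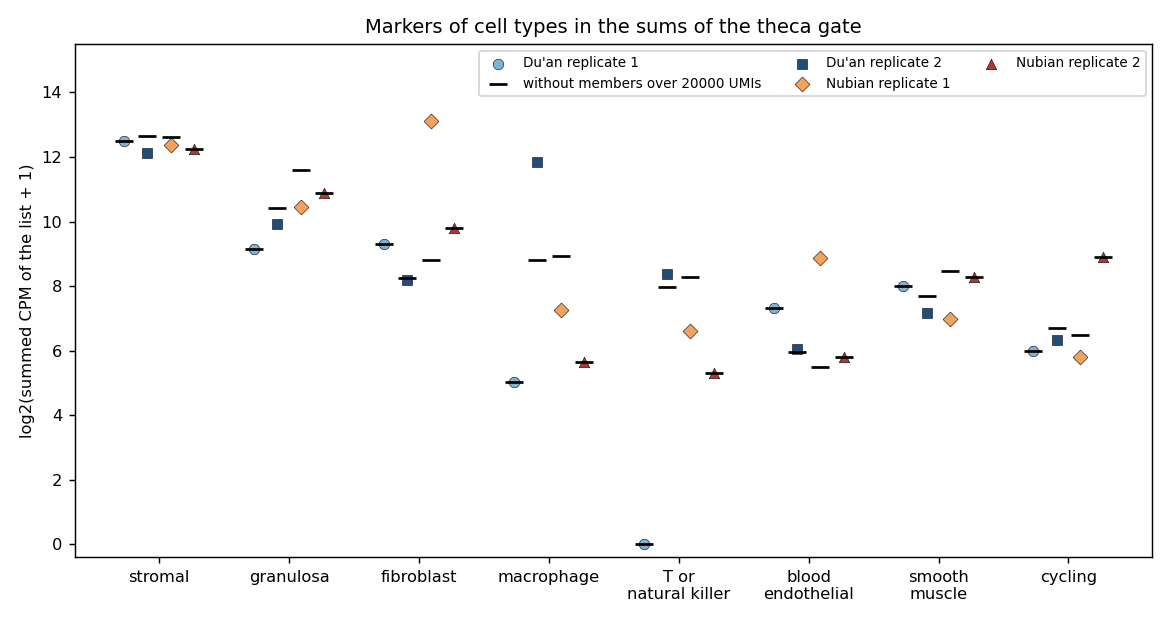
Summed level of 8 marker lists in the theca-gated nuclei as log2(CPM + 1), with 1 coloured point per library and a black dash for the same sum without the members over 20000 UMIs. The macrophage sum of Du'an replicate 2 (3641 CPM) and the fibroblast sum of Nubian replicate 1 (8944 CPM) fall to 450 and 444 CPM at the dashes, and the stromal sums stay between 4420 and 5760 CPM with all members.

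The members were next compared with nuclei of the same ovaries that share the LH receptor but carry a granulosa gene. This LHCGR granulosa gate took nuclei with at least 800 UMIs, at least 2 UMIs of LHCGR and at least 1 UMI of FSHR, CYP19A1 or INHBA, and held 42, 2168, 4614 and 595 nuclei. LHCGR was at 737, 2257, 1436 and 1150.0 CPM there, a range that overlaps that of the members. By edgeR (quasi-likelihood fit, p-values adjusted after Benjamini and Hochberg), 327 of 4942 genes (6.62%) had an adjusted p under 0.05, with 172 (3.48%) higher and 155 (3.14%) lower in theca-gated nuclei. The goats of the gates did not overlap for 91 (1.84%) of the genes called higher and 105 (2.12%) of those called lower. Granulosa genes that are read together with FSHR, CYP19A1 and INHBA were not independent of the gate, and their low level in the members describes the gate.

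Genes higher in the members included ALDH1A1, DLC1 and SMOC2. ALDH1A1, which makes retinoic acid, was at 158, 264, 637 and 358 CPM in the members and at 67.0, 16.7, 8.14 and 19.8 CPM in the LHCGR granulosa gate (log2 fold change 4.15 ± 0.65, adjusted p = 0.00609, where ± is an approximate standard error here and in all fold changes that follow). Of these, 44 of 46 UMIs of Nubian replicate 1 lay in its deepest member, and without the 2 deepest members the log2 fold change was 3.53 (adjusted p = 0.000955). DLC1, a GTPase-activating protein, was at 1931, 857, 2894 and 645 CPM against 157, 63.8, 107 and 99.5 CPM (log2 fold change 3.69 ± 0.42, adjusted p = 0.00250), and it was called in each of 16 alternative analyses. The deepest member held 192 of 209 DLC1 UMIs of Nubian replicate 1, and the library was at 754 CPM without it. SMOC2, a matricellular protein, was at 379.8, 32.4, 194 and 93.8 CPM against 17.5, 2.51, 5.76 and 13.99 CPM (log2 fold change 4.03 ± 0.60, adjusted p = 0.00550). In all of these genes the lowest library of the members lay above the highest of the other gate.

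SULF2, which removes sulfate from heparan sulfate, was at 253, 107, 111 and 143 CPM against 49.5, 3.93, 3.29 and 11.2 CPM (log2 fold change 3.90 ± 0.71, adjusted p = 0.0113). ENPP6, a choline phosphodiesterase, was at 316, 139, 83.1 and 149 CPM against 55.4, 8.03, 5.76 and 4.595 CPM (log2 fold change 3.85 ± 0.62, adjusted p = 0.00670). The lncRNA LOC102172201, the zinc finger factor PLAGL1 and the repulsive guidance molecule RGMA had log2 fold changes of 3.58, 3.58 and 3.56. A single nucleus carried 22 of 22 PLAGL1 UMIs of Nubian replicate 1, and without the 2 deepest members the log2 fold change was 3.15 (adjusted p = 0.00628). The same nucleus held over 75% of the UMIs of that library in 18 of the 51 genes named and called in this comparison, among them DCN, COL1A2, TGFBR2, TSHZ2, NR2F2 and BMPR2. COL5A2, a fibrillar collagen, had a log2 fold change of 4.16 ± 0.79, and 264 of 265 UMIs of Nubian replicate 1 lay in the deepest member, as did 30 of 30 UMIs of the adhesion molecule CLMP (4.14 ± 0.61). With the 2 deepest members left out they were 2.53 (adjusted p = 0.00713) and 3.03 (adjusted p = 0.00628). Nubian replicate 1 was then at 44.4 CPM of COL5A2 and at 0 CPM of CLMP and PLAGL1. These values lay below its 54.6, 6.63 and 11.9 CPM in the LHCGR granulosa gate.

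Genes lower in the members included FST, TLL2 and GCLC. FST, follistatin, which binds activin, was at 0, 13.9, 0 and 27.6 CPM in the members and at 108, 572, 525 and 480.3 CPM in the LHCGR granulosa gate (log2 fold change -4.92 ± 0.54, adjusted p = 0.00250). Its mean in the immune gate was 64.7 ± 45.2 CPM, above that of the members. TLL2, a tolloid-like protease, was at 158, 27.8, 55.4 and 49.6 CPM against 562, 992, 909 and 950.0 CPM (log2 fold change -4.00 ± 0.43, adjusted p = 0.00250). GCLC, the rate-limiting enzyme of glutathione synthesis, was at 158, 78.8, 13.8 and 165 CPM against 390.4, 2415, 2264 and 1392 CPM (log2 fold change -3.98 ± 0.74, adjusted p = 0.0129). No library of the members reached the lowest library of the other gate for these genes. GRIK2, a glutamate receptor subunit, HEY2, a Notch target, LOC102182748 and RCAN3, a calcineurin regulator, had log2 fold changes of -5.09, -4.11, -3.92 and -3.90. CHST8, a sulfotransferase, had 2 UMIs over all members, and its pooled CPM was 57.9 times lower (95% exact Poisson interval 16.0 to 478, counting error only). DYNC1I1, a dynein chain, had 3 UMIs and was 17.7 times lower (6.05 to 85.7), and EPHA5, an ephrin receptor, had 2 and was 17.6 times lower (4.87 to 145).

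**Figure D4:**
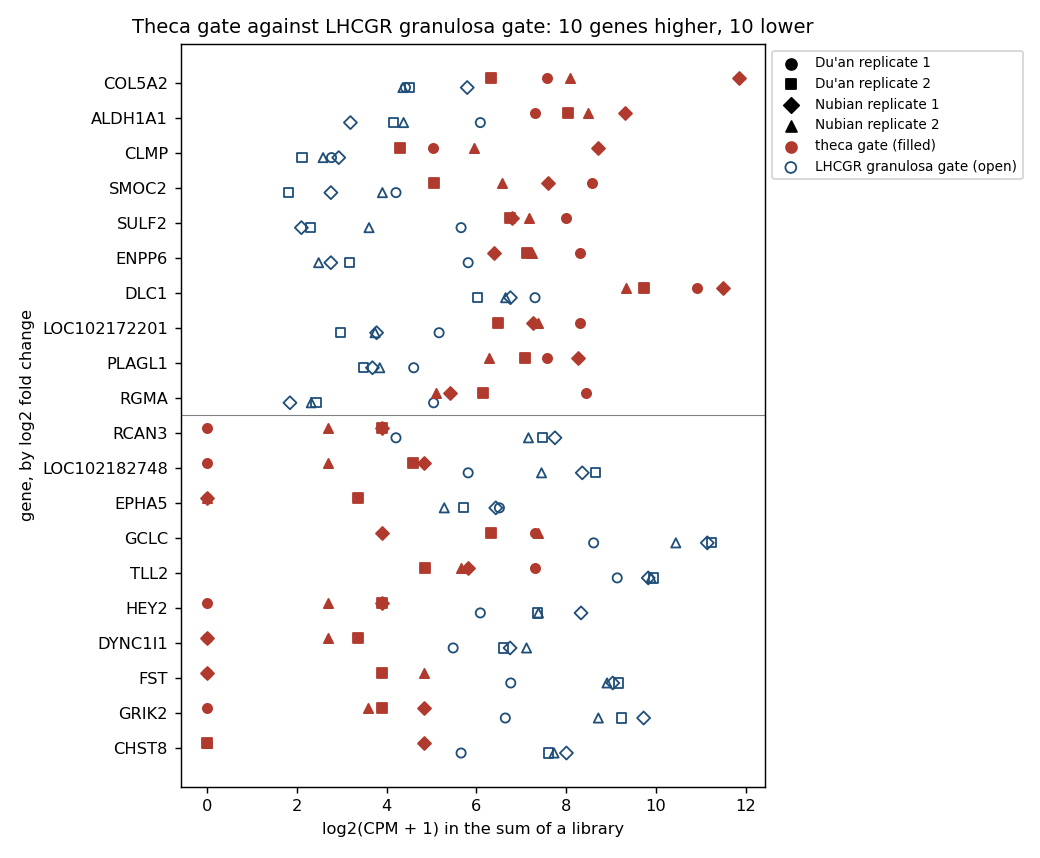
The 10 genes called higher (top) and the 10 called lower (bottom) with the largest log2 fold change between theca-gated (filled) and LHCGR granulosa-gated nuclei (open), as log2(CPM + 1) of the summed nuclei with 1 symbol per goat. With all members, filled and open symbols do not overlap for any of the 20 genes, as the rule for naming them required. Without the 2 deepest members they overlap for COL5A2, CLMP, PLAGL1, LOC102182748 and RCAN3. The filled symbol of Nubian replicate 1 is the highest for COL5A2 at 3669 CPM.

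The number of calls depended on single libraries. Without Du'an replicate 2 it was 73 higher and 31 lower, without Nubian replicate 1 it was 77 and 42, without Nubian replicate 2 it was 60 and 67, and without both libraries of under 10 members it was 20 and 11. Without the 2 deepest members 229 (4.79%) of 4783 genes were higher and 184 (3.85%) lower, and 275 of the 327 genes were called again.

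The members were then compared with the stroma around the follicle. The stromal gate took nuclei with at least 800 UMIs, at least 2 UMIs of PDGFRA (a receptor of mesenchymal cells) and none of LHCGR, FSHR, CYP19A1, INHBA or PTPRC, and held 103, 14, 23 and 55 nuclei. Of 4941 genes 52 (1.05%) were called by edgeR, with 28 (0.567%) higher and 24 (0.486%) lower in theca-gated nuclei. The goats did not overlap for 24 (0.486%) and 23 (0.465%) of them. None of the 5 stromal markers tested was called, and their median log2 fold change was -0.18 beside -0.04 over all genes.

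Genes that serve steroid synthesis were among those higher than in the stroma. FDXR, which passes electrons from NADPH to ferredoxin, was at 63.3, 78.8, 41.5 and 99.3 CPM in the members and at 2.54, 9.58, 11.3 and 3.23 CPM in the stromal gate (log2 fold change 3.84 ± 0.59, adjusted p = 0.0128). FDX1, the ferredoxin, was at 316, 519, 111 and 425 CPM against 50.9, 76.6, 45.0 and 32.3 CPM (log2 fold change 2.84 ± 0.54, adjusted p = 0.0318). Of FDX1, 91 of 112 UMIs of Du'an replicate 2 lay in the nucleus with macrophage markers, and without the 2 deepest members the log2 fold change was 2.56 (adjusted p = 0.00785). The immune gate held 153 ± 104 CPM of FDX1. CYB5A was at 158, 55.6, 83.1 and 49.6 CPM against 20.4, 0, 0 and 9.69 CPM (log2 fold change 2.91 ± 0.60, adjusted p = 0.0450), a call made in 8 of 14 alternative analyses. LOC102174170, which RefSeq lists with the synonym GSTA3, a glutathione transferase with steroid isomerase activity, was at 348, 473, 277 and 734 CPM in 57 members against 12.7, 9.58, 67.5 and 35.5 CPM (log2 fold change 4.04 ± 0.57, adjusted p = 0.00839). In each of these genes every library of the members lay above every library of the stromal gate.

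NR5A1 was not called against the stroma, at 25.4, 28.7, 56.3 and 19.4 CPM there (log2 fold change 2.34 ± 0.63, adjusted p = 0.0984), and the ranges overlap. Without the 2 deepest members it was called (2.74, adjusted p = 0.00982). Against the LHCGR granulosa gate its log2 fold change was 0.89 ± 0.52 (adjusted p = 0.360).

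Other genes higher than in the stroma were of several kinds. STC1, the hormone stanniocalcin, was at 222, 69.5, 152 and 99.3 CPM against 3 UMIs in the whole stromal gate, a pooled ratio of 30.4 times (10.4 to 147, counting error only), and it was called in 7 of 15 alternative analyses. SNTB1, a syntrophin of the dystrophin complex, was at 475, 463, 83.1 and 237 CPM against 12.7, 0, 0 and 9.69 CPM (log2 fold change 5.53 ± 0.65, adjusted p = 0.00349). HECW1, a ubiquitin ligase, was at 443, 561, 13.8 and 325 CPM against 0, 9.58, 11.3 and 6.46 CPM (log2 fold change 6.20 ± 1.01, adjusted p = 0.0189), with 1 UMI in Nubian replicate 1 and a narrow gap there to the highest stromal library. FAM19A4, a secreted peptide, MGLL, which cleaves monoacylglycerol, PTPRN2, a protein of secretory vesicles, GSTM3, a glutathione transferase, and SYT6, a synaptotagmin, had log2 fold changes between 3.71 and 4.82.

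Genes lower than in the stroma included ACTA2 and NR4A1. ACTA2, smooth muscle actin, was at 63.3, 9.27, 69.2 and 71.7 CPM against 443, 527, 1272 and 529.9 CPM (log2 fold change -3.78 ± 0.42, adjusted p = 0.00349), and it was the one smooth muscle marker of 5 tested that was called. NR4A1, an immediate early nuclear receptor that LH is known to induce, was at 0, 9.27, 27.7 and 5.52 CPM against 181, 431, 281 and 58.2 CPM (log2 fold change -4.31 ± 0.71, adjusted p = 0.0189). PRLR, the prolactin receptor, was at 0, 13.9, 27.7 and 38.6 CPM against 115, 249, 124 and 333 CPM (log2 fold change -3.15 ± 0.49, adjusted p = 0.0135). PRLR was lower than in the LHCGR granulosa gate too (log2 fold change -2.03 ± 0.49, adjusted p = 0.0323), a call made in 7 of 15 alternative analyses. ADAMTS1, a matrix protease, CNTN1, an adhesion molecule, LMCD1, a LIM domain protein, SLIT2, a guidance ligand, KCNB2, a potassium channel, and ANKH, a pyrophosphate transporter, had log2 fold changes between -4.44 and -3.10. CPEB1, which binds mRNA tails, had 2 UMIs over all members and was 18.5 times lower (5.11 to 152).

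**Figure D5:**
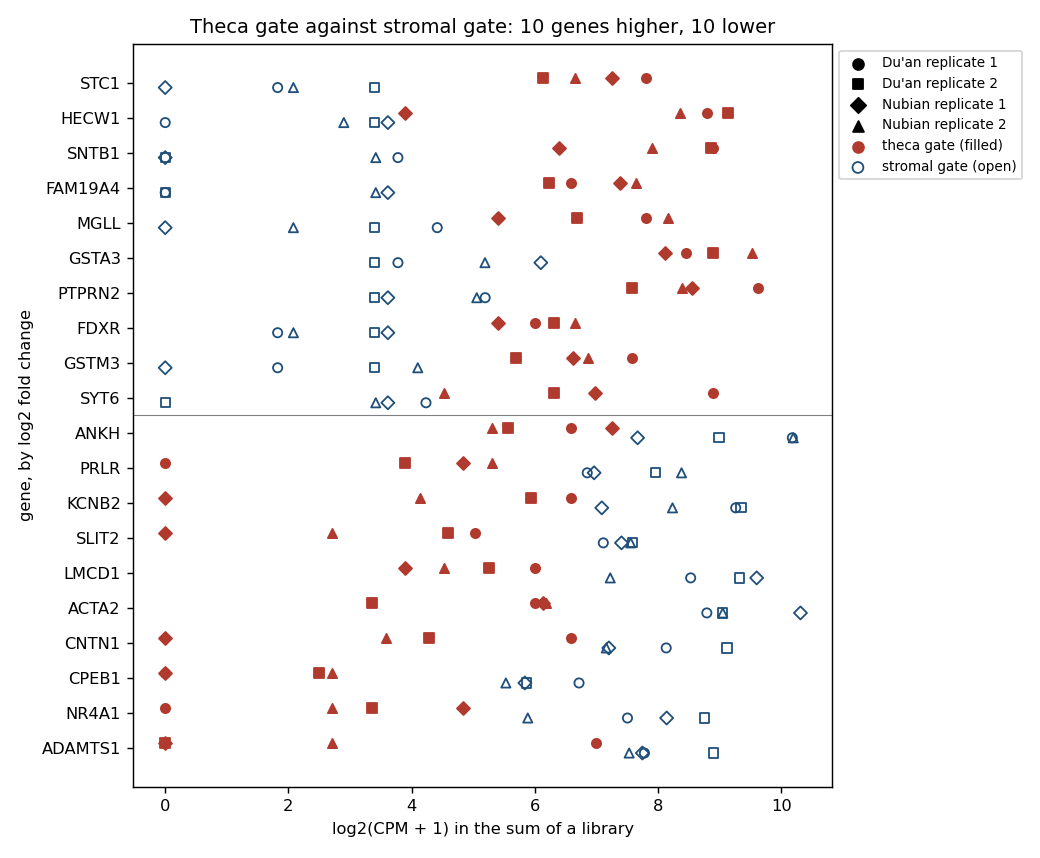
The 10 genes called higher (top) and the 10 called lower (bottom) with the largest log2 fold change between theca-gated (filled) and stromal-gated nuclei (open), as log2(CPM + 1) of the summed nuclei with 1 symbol per goat. GSTA3 stands for LOC102174170. With all members, filled and open symbols do not overlap for any of the 20 genes, as the rule for naming them required. Without the 2 deepest members they overlap for NR4A1. All FDXR values of the members (41.5 to 99.3 CPM) lie to the right of the stromal ones (2.54 to 11.3 CPM).

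These calls were fewer, and leaving out any library but Nubian replicate 1 lowered their number. Without Du'an replicate 2 there were 3 higher and 3 lower, without Nubian replicate 2 there were 7 and 10, without Du'an replicate 1 there were 12 and 18, and without Nubian replicate 1 there were 33 and 40. Of the 52 genes, 5, 15, 18 and 36 were called again in these analyses. Without both libraries of under 10 members edgeR called 0, with 889 of 5321 genes at an unadjusted p under 0.05. Without the 2 deepest members 102 (2.13%) of 4782 genes were higher and 149 (3.12%) lower, and 51 of the 52 genes were called again.

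Lists of genes by function were read in the same fits, in which 3.48% of all genes were higher and 3.14% lower than in the LHCGR granulosa gate and 0.567% higher and 0.486% lower than in the stroma. Of the steroid synthesis genes outside the gate, 14 of 23 are in the files and 5 were tested, of which CYB5A, FDX1 and FDXR were higher than in the stroma and FDX1 alone was higher than in the LHCGR granulosa gate. Their median log2 fold changes were 2.84 and 0.70. FDX1 was at 119, 46.6, 56.3 and 153 CPM in the LHCGR granulosa gate (log2 fold change 1.83 ± 0.48, adjusted p = 0.0437), and 9 of 15 alternative analyses did not call it. CYB5A and FDXR against the LHCGR granulosa gate gave 0.70 ± 0.43 (adjusted p = 0.382) and 0.70 ± 0.38 (adjusted p = 0.317). Of the cholesterol genes 32 of 35 are in the files and 12 were tested, with a median of -1.11 against the LHCGR granulosa gate beside -0.02 over all genes. ABCA1, which exports cholesterol, was higher at 222, 334, 166 and 204 CPM against 105, 29.8, 21.5 and 49.1 CPM (log2 fold change 2.46 ± 0.53, adjusted p = 0.0205). LRP8, a lipoprotein receptor, was lower at 0, 69.5, 41.5 and 33.1 CPM against 20.4, 439.5, 626 and 562 CPM (log2 fold change -3.22 ± 0.61, adjusted p = 0.0140), and the ranges overlap. None of the 12 was called against the stroma.

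In LH receptor and cAMP signalling 40 of 42 genes are in the files and 21 were tested. PRKAR2B, a regulatory subunit of protein kinase A, was lower than in the LHCGR granulosa gate, at 1614, 755, 748 and 1076 CPM against 1821, 4084, 4529 and 2424 CPM (log2 fold change -1.62 ± 0.41, adjusted p = 0.0403). PDE7B, a cAMP phosphodiesterase, was lower too, at 886, 213, 374 and 905 CPM against 3068, 2576, 2177 and 2471 CPM (log2 fold change -2.36 ± 0.34, adjusted p = 0.00501). AKAP13, an anchor of protein kinase A, was higher (log2 fold change 1.16 ± 0.31, adjusted p = 0.0499), but not without the 2 deepest members (adjusted p = 0.120). Against the stroma PDE8B, another cAMP phosphodiesterase, was higher at 1139, 848, 1135 and 1495 CPM against 522, 172, 371 and 242 CPM (log2 fold change 1.92 ± 0.34, adjusted p = 0.0280). RAPGEF4, the cAMP sensor EPAC2, was higher at 759.6, 440.1, 263 and 910.0 CPM against 99.2, 47.9, 158 and 174 CPM (log2 fold change 2.29 ± 0.38, adjusted p = 0.0189). Without its deepest member Nubian replicate 1 was at 3637 CPM of PDE8B and 754 CPM of RAPGEF4. NR4A1 was the one gene of this list lower than in the stroma, joined by ADCY2 and PDE3A without the 2 deepest members. The medians of the list, -0.03 against the LHCGR granulosa gate and 0.00 against the stroma, were near those of all genes.

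Hedgehog genes gave no call in either comparison among 8 tested of 15. The effector GLI2 was at 285, 27.8, 55.4 and 27.6 CPM in the members and 221, 172, 664 and 278 CPM in the stroma, and GLI3 at 285, 171, 471 and 243 and 537, 402, 608 and 465 CPM. Both were called lower than in the stroma without the 2 deepest members. GLI1, a direct target of the pathway, had 0 UMIs in the members, which allows up to 5.99 CPM of their pooled UMIs, and the ligands IHH, DHH and SHH had 0 UMIs as well.

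Of 11 transcription factors tested of 17, 3 were higher and 2 lower than in the LHCGR granulosa gate (3.48% and 3.14% of all genes) and none was called against the stroma, where NR5A1 was called higher and WT1 lower without the 2 deepest members. NR2F2 (COUP-TFII), a factor of ovarian mesenchyme, was at 253, 144, 180.0 and 215 CPM against 81.6, 27.1, 33.96 and 27.4 CPM (log2 fold change 2.37 ± 0.35, adjusted p = 0.00550), and it was called in each of 16 alternative analyses. TBX3, a T-box factor, was at 31.6, 74.1, 13.8 and 49.6 CPM against 17.5, 2.73, 3.95 and 7.19 CPM (log2 fold change 3.18 ± 0.75, adjusted p = 0.0295), and the ranges overlap. Lower were NR5A2, the relative of NR5A1 in granulosa cells, and FOXO1. NR5A2 was at 31.6, 55.6, 13.8 and 425 CPM against 312, 2861, 2145 and 2502 CPM (log2 fold change -4.12 ± 0.82, adjusted p = 0.0156), with Nubian replicate 2 above the lowest library of the other gate. FOXO1, a forkhead factor of granulosa cells, was at 253, 408, 761 and 689 CPM against 1605, 2438, 3569 and 2303 CPM (log2 fold change -2.26 ± 0.47, adjusted p = 0.0181).

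Of 15 receptors tested of 18, NR2F2 and THRB were higher and PRLR lower than in the LHCGR granulosa gate, and PRLR alone was called against the stroma, where INSR was called higher and NR3C2 lower without the 2 deepest members. THRB, a thyroid hormone receptor, had a log2 fold change of 2.63 ± 0.61, but 136 of 137 UMIs of Nubian replicate 1 lay in the deepest member, and without the 2 deepest members the adjusted p was 0.0891. The insulin receptor INSR, in 71 members, was at 1329, 857, 568 and 811 CPM in the members and 860.4 ± 267 CPM in the LHCGR granulosa gate.

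Of 21 genes of BMP, activin and TGF-beta signalling tested of 33, 3 were higher and 5 lower than in the LHCGR granulosa gate (3.48% and 3.14% of all genes) and none was called against the stroma, where BMPR1B and FST were called lower without the 2 deepest members. The ligand BMP6 was higher at 189.9, 185, 582 and 204 CPM against 105, 54.7, 30.6 and 23.4 CPM (log2 fold change 2.56 ± 0.58, adjusted p = 0.0276), as were the receptor TGFBR2 (2.55 ± 0.44) and the ligand TGFB2 (2.41 ± 0.59), which was not called without the 2 deepest members (adjusted p = 0.0921). Lower were the effector SMAD2 (-2.26 ± 0.35), the receptor BMPR2 (-1.47 ± 0.38), the activin binder FST, and the inhibin subunits INHBB (-3.14 ± 0.49) and INHA (-2.87 ± 0.74, adjusted p = 0.0695 without the 2 deepest members). Of 9 vascular and paracrine ligands tested of 30, FGF1 alone was called (log2 fold change 2.51 ± 0.61, adjusted p = 0.0342), from 475, 32.4, 485 and 22.1 CPM against 84.5, 5.52, 26.7 and 19.0 CPM. In Nubian replicate 1, 33 of 35 FGF1 UMIs lay in the deepest member. Without the 2 deepest members FGF1 was not called (adjusted p = 0.0596), and PDGFD was the one ligand called in that comparison and ANGPT2, higher, in that with the stroma.

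The marker lists were read in the fits as well, in which 3.48% of all genes were higher and 3.14% lower than in the LHCGR granulosa gate. The gate barred FSHR, CYP19A1 and INHBA, so calls of granulosa markers describe the gate. Against the LHCGR granulosa gate 3 of 6 stromal markers tested (NR2F2, TSHZ2 and DCN) and 4 of 4 fibroblast markers (COL1A1, COL1A2, COL3A1 and FN1) were higher, while 7 of 10 granulosa markers (median -3.01) and 1 of 4 cycling markers (CENPE, with 3 UMIs in the members) were lower. For COL3A1, 408 of 411 UMIs of Nubian replicate 1 came from the deepest member, and FN1 was not called without the 2 deepest members (adjusted p = 0.390). Without those members 5 of 10 granulosa markers were lower, as INHA and TMEM178B (adjusted p = 0.134) were not called, and 5 of 6 stromal markers were higher, with DMD and LAMA2 added. Of all genes, 4.79% were higher and 3.85% lower in that fit. Against the stroma COL3A1 and FN1 were then called lower. No macrophage, endothelial or pericyte marker was called in either comparison, with 1 of each tested, blood and lymphatic endothelial markers counted apart. Without the 2 deepest members the blood endothelial marker ERG was called lower than in the stroma, with a log2 fold change of -3.54.

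Mitochondrially encoded transcripts summed higher in the members than in the LHCGR granulosa gate of each goat, and few members carried most of the sums of the Nubian libraries. They came to 5285, 34625, 17722 and 44498 CPM in the members and to 4862, 9983, 11459 and 11276 CPM in the LHCGR granulosa gate, 8577, 14819.9, 18152 and 22137 CPM in the stromal gate and 31748 ± 1737 CPM in the immune gate. Members with over 20% of such UMIs numbered 0, 2, 1 and 3 and held 0 of 167, 1044 of 7474, 969 of 1280 and 4462 of 8068 of them, and the median share per member was 0.403%, 1.53%, 1.15% and 0.657%. Without its deepest member Nubian replicate 1 was at 56159 CPM. ND5, a subunit of respiratory complex I, was the one called of 11 tested against the LHCGR granulosa gate, at 316, 602, 582 and 717 CPM against 102, 179, 184 and 184 CPM (log2 fold change 1.73 ± 0.23, adjusted p = 0.00452). The median of the 11 was 1.29, and without the 2 deepest members 10 of them were called higher, beside 4.79% of all genes. Against the stroma none was called, and ND5 alone without the 2 deepest members. Median depth was lower in the members than in the LHCGR granulosa gate (6630, 6655, 6023.5 and 6835 UMIs). The part of depth, of mitochondrial RNA and of granulosa UMIs read in other nuclei in the differences given above was not tested.

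Between the breeds the share of members differed less than between goats of a breed. Of nuclei with 800 or more UMIs, the members were 0.104% (exact 95% interval 0.0450 to 0.205%), 0.300% (0.203 to 0.428%), 0.0464% (0.0186 to 0.0955%) and 0.441% (0.314 to 0.602%). The mean was 0.244% ± 0.279 in Nubian and 0.202% ± 0.139 in Du'an goats (SD, n = 2 each). The difference of 0.0415 percentage points gave p = 1 in a two-sided exact permutation test, and 2 goats against 2 allow no p below 0.333. The direction turned without Du'an replicate 1 (-0.0564) and without Nubian replicate 2 (-0.156). The intervals cover counting error only, and the part of the granulosa UMIs read in other nuclei in these shares was not tested.

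No gene that passed the filter on low counts was called between the breeds in the members. Of 2864 genes tested by edgeR, 0 (0%) had an adjusted p under 0.05 and 81 (2.83%) an unadjusted p under 0.05, and DESeq2 called 0 as well, with 62 genes at that unadjusted level. With no filter on low counts edgeR called 37 higher and 50 lower in Nubian goats among 13731 genes. The genes with the smallest p in each direction, 5 and 5, are given as values that were not called (adjusted p = 1.00). COL24A1, a fibrillar collagen, was at 0 and 4.63 CPM in Du'an and 706 and 204 CPM in Nubian goats, and 51 of 51 UMIs of Nubian replicate 1 lay in its deepest member. The proteoglycan DCN was at 0 and 18.5 against 540.0 and 215 CPM, the chondroitin synthase CHSY3 at 63.3 and 27.8 against 1648 and 281 CPM, and the proteoglycan VCAN at 316 and 181 against 1371 and 1059 CPM, and the same nucleus gave 38 of 39, 118 of 119 and 87 of 99 UMIs in Nubian replicate 1. CDH2, N-cadherin, was at 94.9 and 83.4 against 346 and 711 CPM, with 21 of 25 UMIs of Nubian replicate 1 in that nucleus. The values of Nubian replicate 1 for these genes are thus mostly those of 1 nucleus.

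In the other direction SEMA5A, a semaphorin, was at 665 and 153 CPM in Du'an and 13.8 and 38.6 CPM in Nubian goats, and LOC100861197 at 94.9 and 107 against 0 and 5.52 CPM. The ceramidase ASAH1 was at 127 and 301 against 27.7 and 27.6 CPM, TNFAIP8, a regulator of apoptosis, at 158 and 204 against 41.5 and 27.6 CPM, and N4BP2L1 at 222 and 129.7 against 41.5 and 22.1 CPM. For ASAH1, LOC100861197 and TNFAIP8, 57 of 65, 21 of 23 and 14 of 44 UMIs of Du'an replicate 2 lay in the nucleus with macrophage markers.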

How the data were processed

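Ovaries of 4 goats were profiled as nuclei, 1 droplet library per goat. The authors mapped reads with Cell Ranger (5.0.0 per the labels, another version in the file headers) and deposited UMI counts of 28944 genes per nucleus, not normalized. The annotation release and whether intronic reads were counted are not given in the sources used here. The 2 deposited marker tables of granulosa cells hold the authors' own fold changes and p-values and were not used.

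UMIs were summed per goat and gate, since nuclei are not replicates. The sums of theca, LHCGR granulosa and stromal gates entered 1 fit of edgeR 4.0.16 (R 4.3.3; quasi-likelihood, TMM, filterByExpr, Benjamini-Hochberg adjustment over all genes tested) with the goat as block. Breeds were compared without a block. The approximate standard error of a log2 fold change was its absolute value divided by the square root of the F statistic of its test. Gate genes got no test, nor did PDGFRA and PTPRC against the stroma. Sums of members ranged from 31597 to 215857 UMIs, which sets the precision. DESeq2 1.42.0 was an alternative. The fits were tested on simulated data.

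Named genes were the gate genes and STAR, list genes that were called or abundant, up to 10 genes per direction with the largest log2 fold change among genes called with 50 CPM or more in the higher gate and no overlap of the goats, and the 5 genes per direction with the smallest p between breeds. Of the listed genes 16 matched no symbol, HSD3B1 and HSD3B2 among them. CYP17A1 and CYP11A1 were matched to locus tags through RefSeq. The members and lists were chosen with earlier results of these data known. Some genes of the lists enter the counts and are not reported here by name.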

Additional observations from a re-analysis of the deposited data

Results flagged for a closer look

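The summed level of vascular and paracrine ligands differed between the gates in opposite directions in the breeds. It was 2753, 982, 3683 and 2019 CPM in the theca gate and 3382, 1133, 1228 and 1889 CPM in the LHCGR granulosa gate, higher in the theca gate of both Nubian goats and lower in that of both Du'an goats. The mean differences of the breeds were 1682 CPM apart, and this was not tested. Without Nubian replicate 1 they were 519.7 CPM apart. Without the 2 deepest members the sum of Nubian replicate 1 was 2972 CPM and that of Du'an replicate 2 1411 CPM, so Du'an replicate 2 was then higher in the theca gate and the directions were no longer opposite. In Nubian replicate 1, whose deepest member held 68.8% of the member UMIs, PDGFC was at 1191 CPM and HGF at 485 CPM.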

How the results depend on the processing

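Numbers of calls moved with the analysis more than directions did. Theca against LHCGR granulosa gave 172 genes higher and 155 lower. It gave 347 and 257 with DESeq2, 309 and 524 of 20289 with no filter on low counts, 74 and 81 of 868 with each nucleus thinned to 800 UMIs, 60 to 145 and 31 to 131 with 1 library left out, and 20 and 11 without both libraries of under 10 members. Theca against stromal gave 28 and 24. It gave 120 and 146 with DESeq2, 240 and 326 of 20287 with no filter, 67 and 76 with the filter on nuclei of the study's methods, 51 lower with CYP17A1 or CYP11A1 required, 41 lower without nuclei with PTPRC, PECAM1 or MYH11, 102 and 149 without the members over 20000 UMIs, 3 to 33 and 3 to 40 with 1 library left out, and 0 and 0 without both small libraries. Leaving out the deep members or both small libraries was chosen after seeing the data. Breeds gave 0 and 0, and 37 and 50 of 13731 genes with no filter. The difference in the share of members, 0.0415 percentage points, reversed without Du'an replicate 1 (-0.0564) and without Nubian replicate 2 (-0.156), and the highest value with 1 library left out was 0.239. The causes were not tested. Of the 327 and 52 genes called, 1 and 1 changed direction, both without nuclei with PTPRC, PECAM1 or MYH11. In the other alternatives none of those tested did, and with nuclei thinned to 800 UMIs only 116 and 18 of them were tested.

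With the replicate number as a block, breeds gave 0 calls (86 genes at an unadjusted p under 0.05) and the share difference was 0.0415. Same-numbered libraries deviated together with a correlation of 0.229 over 2868 genes, in 2 pairs only, so the number was not taken as a pairing. Without the goat as a block the comparisons of gates gave 167 and 114 and 19 and 20 calls. Fewer than 3 in 5 of the alternatives called 10 of the 51 genes named against the LHCGR granulosa gate (AKAP13, THRB, BMPR2, INHA, TGFB2, CENPE, TMEM178B, FDX1, PRLR and FGF1) and 3 of the 24 named against the stroma (ADAMTS1, STC1 and CYB5A).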

Other observations

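Some mitochondrially encoded genes were near 0 in every gate of Du'an replicate 2. ATP6, a subunit of ATP synthase, was at 759.6, 0, 2118 and 5819 CPM in the members and at 4309, 1.87, 4172 and 4752 CPM in the immune gate. COX2, a subunit of cytochrome c oxidase, was at 189.9, 4.63, 969 and 3061 CPM in the members and at 2686, 3.96, 2443 and 3328 CPM in the immune gate. ATP8 was at 22.8, 0, 21.8 and 15.6 CPM in the immune gate. COX3, another subunit, was high in the same library, at 1582, 13245, 4569 and 11968 CPM in the members.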
